A study of Mus musculus with 12 samples.

Results

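This account covers 9 complement genes, C1qa, C1qb, C1qc, C1ra, C1s1, C3, C4b, C7 and Serping1, in heart muscle of mice with and without myocardial infarction (MI). They were chosen by symbol, and each symbol matched 1 Ensembl identifier among the 56647 gene rows that had a value in every library. Of the 9, 8 passed the filter on low counts and were tested. The exception, C7, is given by its counts. The tissue was labelled myocardial, and all mice were wild type. The sham vehicle group held 3 mice whose titles name the vehicle and whose descriptions name sham surgery. The MI group held 3 mice with ligation of the left coronary artery, and the NECA-treated MI group held 4 mice with an infarct into which NECA was delivered locally. NECA, 5′-(N-ethylcarboxamido)adenosine, is an agonist of adenosine receptors that resists breakdown. The MI labels name neither a vehicle nor a delivery. Should these mice have had neither, the effects of NECA and of delivering it cannot be told apart, and the same holds for ligation and a missing vehicle. The sources used here do not give strain, age, dose or time of sampling. The labels speak of separate mice and say nothing of pooling.

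Complement is a cascade of plasma proteins that tags damaged cells and microbes and draws in leukocytes. In its classical pathway C1q, assembled from A, B and C chains, binds a target and activates the proteases C1r and C1s, which cleave C4 and C2 to form the enzyme that cleaves C3. Fragments of C3 coat the target, and later steps insert the membrane attack complex, to which C7 belongs. The C1 inhibitor, encoded by Serping1, inactivates C1r and C1s. The liver supplies most C3 and C4 of plasma, whereas C1q is made largely by macrophages and dendritic cells, and many stromal cells make C1r, C1s and C3. Injured heart muscle is known to activate complement.

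Promoter sequence is shown for 3 genes that each held a motif searched for and whose transcripts varied from mouse to mouse in different ways. They are C1qc among the C1q chains, C1s1 among the proteases, and C3. Promoters of 300 bases around a start site, from RefSeq on build GRCm38.p6, were found for 6 of the 9 genes. These promoters were searched on both strands for 5 motifs. The core motif of PU.1, a factor of myeloid cells, was written GAGGAAG, and that of C/EBP factors, known from acute phase genes, TTGCNNAA. Each line gives 30 bases, 5′ to 3′ on the gene's strand, with the motif in capitals.
C1qc: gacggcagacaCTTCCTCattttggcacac
C1s1: agagagaaTTAGGCAAtctcaaaattcccc
C3: aggaaactatgTTGCGAAAttttgggcagt
The C1qc stretch lies at chr4:136893090-136893119 on the minus strand, and its motif, on the opposite strand of the gene, begins 194 bases before the start site. The C1s1 stretch lies at chr6:124542580-124542609 on the minus strand, again with its motif on the opposite strand, 242 bases before the start. The window of another C1s1 start site, chr6:124542272-124542571, did not hold the C/EBP letters. The C3 stretch lies at chr17:57228163-57228192 on the minus strand with its motif 45 bases before the start. C1qc was the 1 matched gene with the PU.1 core, which 13.6% of 32851 promoters of that length hold. The promoter of C1qb did not hold this core, and none was found for C1qa. The C/EBP letters were in C1ra, C1s1 and C3 and in 10.8% of all promoters. The STAT element TTCNNNGAA was in C1ra and C7 and in 8.3% of promoters. The interferon response element (3.44% of promoters) and the NF-kappa-B element (0.411%) were in 0 of the 6. A match is a description of letters and shows no binding.

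Levels are given for each mouse as CPM, the count out of every 1000000 counts of the library. The 10 libraries of ordinary depth held 959840 to 1330259 counts, and MI mice 2 and 3 each had a further, 1st library of 30745429 and 27130817 counts, which was summed with the 2nd. The 2nd libraries alone, with the other 8 mice unchanged, give values at 1 depth. Markers of heart muscle summed to 39856 to 55747 CPM in every mouse. The hepatocyte markers Alb, Serpina1a and Fgb were at 0 in every library. With Apoa1 and Ttr, the 5 hepatocyte markers summed to at most 1.59 CPM, in NECA-treated MI mouse 1. Sham vehicle mouse 3 stood apart from the other sham mice. Its summed mesothelial markers, of the lining of the heart, were 391 CPM against 9.43 and 27.1 CPM, its adipocyte markers 868 CPM against 72.9 and 87.2 CPM, and the atrial light chain gene Myl7 785 CPM against 0 and 0.752 CPM. MI mouse 3 stood apart within its group, with macrophage markers at 802 CPM beside 389 and 312 CPM and fibroblast markers at 5349 CPM beside 2202 and 1728 CPM. Values with and without these mice are given where a result rests on them. In bulk tissue, fewer cells of a type and less RNA per cell cannot be told apart.

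After coronary ligation, the 8 tested complement genes were on average higher than in sham vehicle mice, but none passed the test. Fold changes are log2 of MI over sham vehicle with standard errors, from 1 edgeR quasi-likelihood fit that held the 10 mice, with Benjamini-Hochberg adjustment over all 9688 genes tested. At an adjusted p under 0.05, 0 of 8 complement genes passed, beside 0.155% of all genes. At an unadjusted p under 0.05 there were 2 of 8, C1qa and C1qb, beside 14.9% of all genes. DESeq2 called C1qa (3.88% of the genes to which it gave an adjusted p), edgeR without the low-count filter called C1qa and C1qb (1.4% of all genes), and limma on log2(TPM + 1) called 0 (0.0% of all genes). All 8 fold changes lay above 0, as did 50.5% of all genes, with a median of 0.68 beside 0 for all genes. The median was 1.33 without sham vehicle mouse 3, and 0.50, 0.42 and 0.42 without sham vehicle mouse 1, sham vehicle mouse 2 or MI mouse 3. A p above the threshold does not show that the groups had equal levels.

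**Figure D1:**
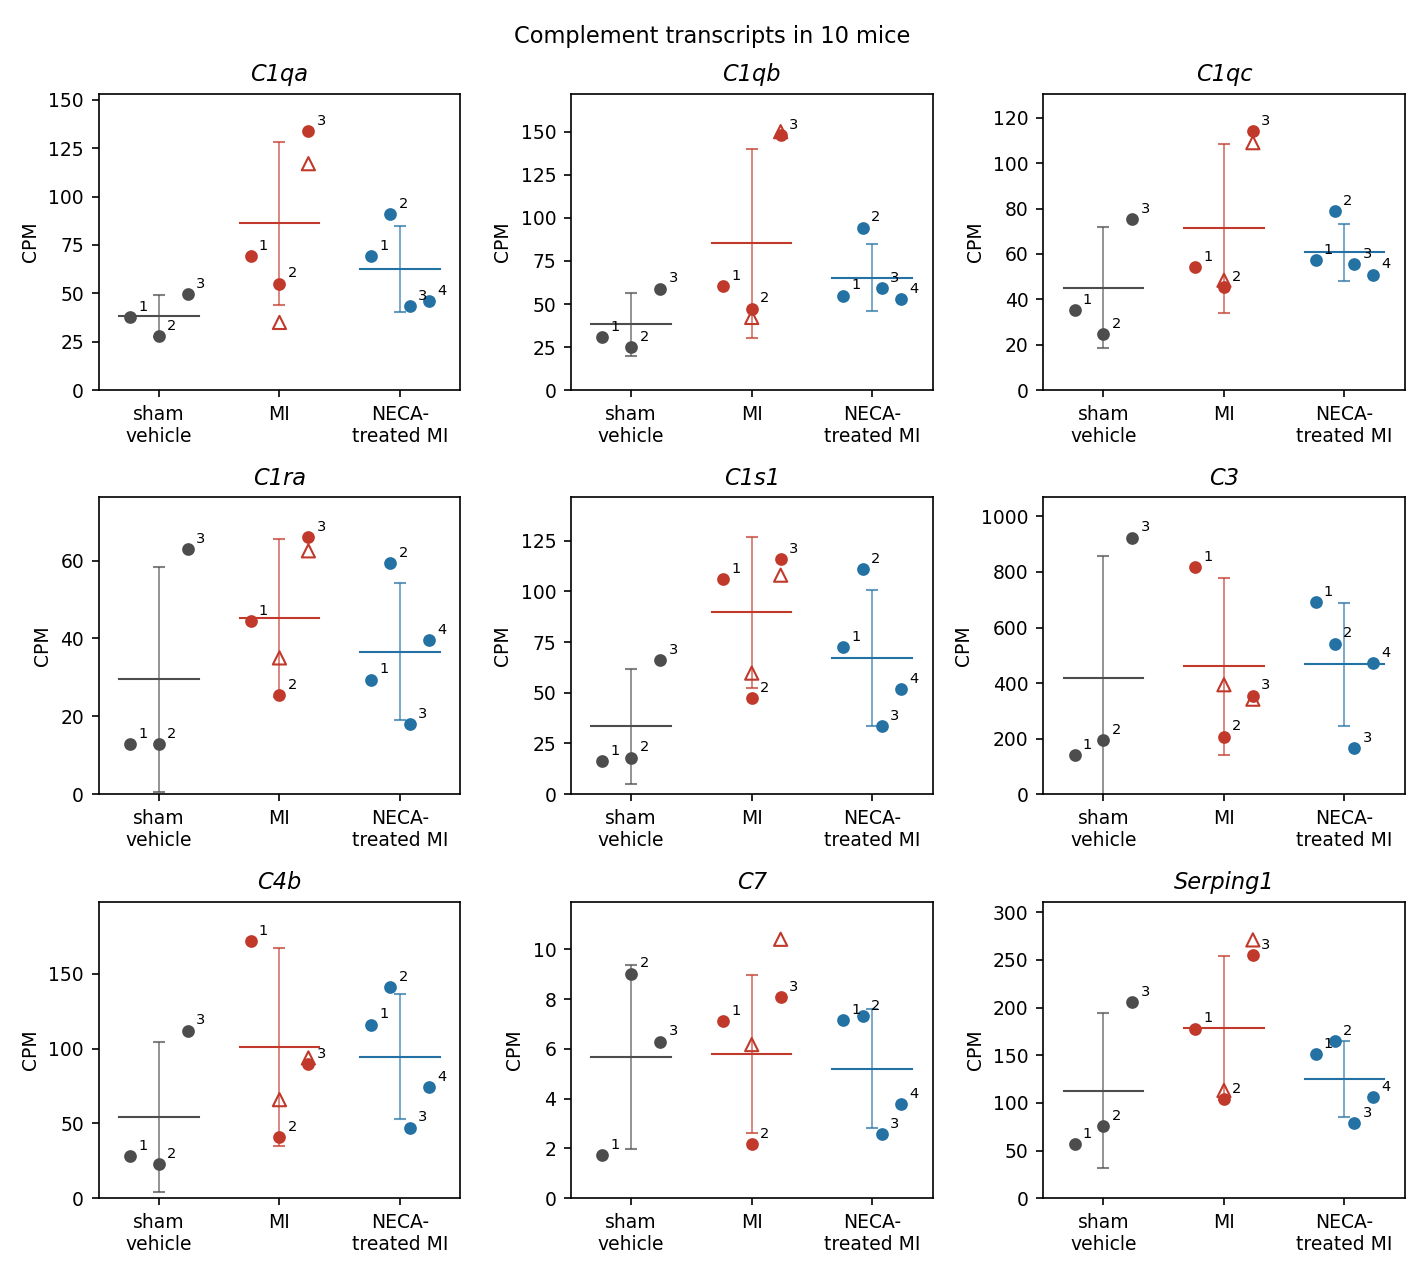
CPM of each of the 9 complement genes (vertical axes, linear, each with its own range from 0) in the 3 sham vehicle, 3 MI and 4 NECA-treated MI mice. Filled points are mice, numbered as in the labels, horizontal lines are group means, error bars are SD over mice, and open triangles are the 2nd libraries of MI mice 2 and 3. Sham vehicle mouse 3 is the highest of its group for 8 genes. With libraries summed, MI mouse 2 is the lowest of its group for all 9.

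C1qa (ENSMUSG00000036887), the gene of the A chain, had 37.7, 27.8 and 49.5 CPM in sham vehicle mice 1 to 3. In MI mice 1 to 3 it had 69.3, 55.1 and 134 CPM, and in NECA-treated MI mice 1 to 4 it had 69.2, 91.1, 43.6 and 46.1 CPM. All MI mice lay above all sham vehicle mice, and the NECA-treated mice reached down into the sham range. C1qa was the only member whose MI and sham vehicle mice did not overlap, as seen upwards in 8.34% of all tested genes. The group means were 38.4 ± 10.9 CPM in sham vehicle (SD, n = 3), 86.1 ± 42.0 CPM in MI (n = 3) and 62.5 ± 22.2 CPM in NECA-treated MI mice (n = 4). The log2 fold change of MI against sham vehicle was 1.06 ± 0.29 (edgeR adjusted p = 0.128). It ranged from 0.70 to 1.27 with each mouse left out in turn, the lowest being without MI mouse 3. DESeq2 gave 1.03 with an adjusted p of 0.0409.

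The value of MI mouse 2 depended on the library. Its 1st library held 55.7 CPM of C1qa and its 2nd 35.0 CPM from 34 counts, with an exact Poisson 95% interval of 24.2 to 48.9 CPM. With the 2nd value the MI and sham vehicle mice overlapped, and the log2 fold change with 2nd libraries only was 0.84 ± 0.38 (edgeR adjusted p = 0.417). Of the 9 genes, C1qa, C3, C4b and C7 had a 1st value outside the interval of the 2nd in MI mouse 2, and 0 of 9 did in MI mouse 3. Over all genes with at least 20 counts, the 1st value lay inside for 56.4% of 5283 genes in MI mouse 2 and 88.5% of 6131 in MI mouse 3. The intervals cover counting error only.

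C1qb (ENSMUSG00000036905), the gene of the B chain, had 30.9, 24.8 and 58.9 CPM in the sham vehicle mice, 60.4, 47.3 and 148 CPM in the MI mice, and 54.9, 94.3, 59.0 and 52.7 CPM in the NECA-treated mice. Sham vehicle mouse 3 lay above MI mouse 2, so the groups overlapped. The log2 fold change of MI against sham vehicle was 1.05 ± 0.37 (edgeR adjusted p = 0.232), and 0.50 without MI mouse 3. C1qc (ENSMUSG00000036896), the gene of the C chain, had 35.2, 24.8 and 75.4 CPM in sham vehicle, 54.2, 45.5 and 114 CPM in MI and 57.2, 78.9, 55.6 and 50.9 CPM in NECA-treated mice. Its sham vehicle mouse 3 lay above 2 of 3 MI and 3 of 4 NECA-treated mice. The log2 fold change was 0.57 ± 0.33 (edgeR adjusted p = 0.444). C1qb had 1.04 and C1qc 0.56 with 2nd libraries only.

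C1ra and C1s1 encode the proteases that C1q activates, and both varied more between mice than the C1q chains did, with SDs of log2 CPM over the 10 mice of 0.91 and 1.03 against 0.62 to 0.73. C1ra (ENSMUSG00000055172) had 12.9, 12.8 and 62.9 CPM in sham vehicle, 44.4, 25.5 and 66.0 CPM in MI and 29.4, 59.4, 18.0 and 39.6 CPM in NECA-treated mice. Sham vehicle mice 1 and 2 were the lowest of all 10 mice, while sham vehicle mouse 3 was second only to MI mouse 3. C1s1 (ENSMUSG00000038521) had 16.3, 18.0 and 66.0 CPM in sham vehicle, 106, 47.2 and 116 CPM in MI and 72.4, 111, 33.4 and 51.8 CPM in NECA-treated mice. Again sham vehicle mice 1 and 2 were the lowest, and sham vehicle mouse 3 lay above MI mouse 2 and NECA-treated mice 3 and 4. C1s1 had the largest fold change of the 8 genes, 1.31 ± 0.57 (edgeR adjusted p = 0.336), and C1ra had 0.53 ± 0.60 (edgeR adjusted p = 0.737). Without sham vehicle mouse 3 that of C1s1 was 2.14 (edgeR adjusted p = 0.103). The near copies C1s2 and C1rb had at most 11 counts in a group, so few reads were assigned to them in place of C1s1 and C1ra.

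C4b (ENSMUSG00000073418) encodes C4, the first substrate of C1s. It had 28.3, 22.6 and 112 CPM in sham vehicle, 172, 41.0 and 89.5 CPM in MI and 116, 141, 47.1 and 74.4 CPM in NECA-treated mice. MI mouse 1 was the highest of all, and sham vehicle mouse 3 exceeded MI mice 2 and 3. For MI against sham vehicle the log2 fold change was 0.78 ± 0.72 (edgeR adjusted p = 0.671). Its paralog C4a had at most 27 counts in a group.

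C3 (ENSMUSG00000024164) encodes the component on which all activation routes converge. It had 141, 194 and 924 CPM in sham vehicle, 818, 207 and 355 CPM in MI and 692, 542, 165 and 473 CPM in NECA-treated mice. Its highest value was in a sham vehicle mouse, and each group spanned low and high mice. The group means, 420 ± 438 CPM in sham vehicle (SD, n = 3), 460 ± 319 CPM in MI (n = 3) and 468 ± 222 CPM in NECA-treated mice (n = 4), differed by much less than their spread. The log2 fold change of MI against sham vehicle was 0.12 ± 0.83 (edgeR adjusted p = 0.967), and its sign depended on single mice. It was -0.63 without MI mouse 1, -0.25 and -0.18 without sham vehicle mice 1 and 2, and 1.26 without sham vehicle mouse 3. With 2nd libraries only it was 0.33 ± 0.78 (edgeR adjusted p = 0.911), with MI mouse 2 at 394 CPM and MI mouse 3 at 342 CPM.

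C7 (ENSMUSG00000079105) encodes a component of the membrane attack complex and was too low to test. Sham vehicle mice had 2, 12 and 8 counts (1.72, 9.02 and 6.29 CPM), and NECA-treated mice 9, 9, 3 and 4 counts (7.16, 7.32, 2.57 and 3.77 CPM). The MI mice had 7.11, 2.18 and 8.08 CPM, and the groups overlapped throughout. With the filter removed, edgeR gave a log2 fold change of -0.19 ± 0.51 for MI against sham vehicle (adjusted p = 0.878), and 0 ± 0.39 for NECA-treated MI against MI. C7 did not share the high values of sham vehicle mouse 3, which was 1.17 times the mean of the other 2 sham mice.

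Serping1 (ENSMUSG00000023224), the gene of the C1 inhibitor, had 56.6, 75.2 and 206 CPM in sham vehicle, 178, 104 and 255 CPM in MI and 151, 165, 78.7 and 106 CPM in NECA-treated mice. Every infarcted mouse was above sham vehicle mice 1 and 2, and sham vehicle mouse 3 was second of the 10. MI differed from sham vehicle mice by a log2 fold change of 0.59 ± 0.42 (edgeR adjusted p = 0.56).

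The order of the group means was the same for 7 of the 9 genes, sham vehicle lowest, NECA-treated MI between and MI highest. The exceptions were C3, with NECA-treated MI highest, and C7, with NECA-treated MI lowest. The sham vehicle and NECA-treated means lay further apart than the larger of their SDs for C1qa, C1qb and C1s1, and all other neighbouring means lay within the larger SD.

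Sham vehicle mouse 3 lay within the range of the infarcted mice for most of the genes. Its level was 1.17 times (C7) to 5.52 times (C3) the mean of sham vehicle mice 1 and 2, with 4.90 times for C1ra and 1.51 times for C1qa. For 7 of 9 genes, all but C3 and C7, each of the 7 infarcted mice lay above both other sham vehicle mice, a separation shown by 10.5% of all tested genes. C1qa lost it with the 2nd library of MI mouse 2, at 35.0 CPM against 37.7 CPM in sham vehicle mouse 1. Sham vehicle mouse 3 also had the high mesothelial, adipocyte and atrial markers given above. Its fibroblast markers summed to 2892 CPM against 1219 and 1185 CPM in sham vehicle mice 1 and 2, with 8 of 8 higher, and its macrophage markers to 360 CPM against 167 and 156 CPM, with 6 of 8 higher. All 5 B cell, 6 T cell and 5 blood markers were higher too, and the part of these markers in its complement levels was not tested. Without it, 6 of 8 genes had an unadjusted p under 0.05 for MI against sham vehicle, beside 15.5% of all genes, and 0 had an adjusted p under 0.05, beside 0.402% (edgeR, smallest adjusted p = 0.0866).

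**Figure D2:**
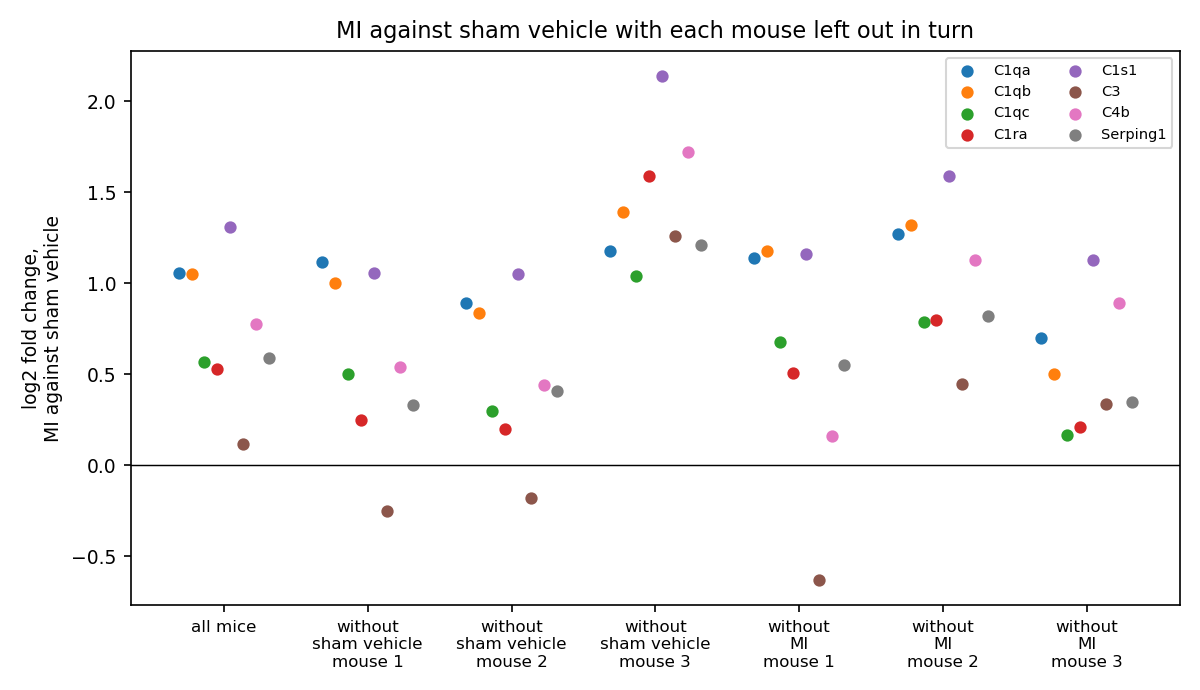
Log2 fold change of MI against sham vehicle (vertical axis) for the 8 tested complement genes (colours) with all mice and with each sham vehicle or MI mouse left out (horizontal axis). Without sham vehicle mouse 3 the 8 genes lie at 1.04 to 2.14, where each but C1qa has its highest value, and C3 lies below 0 in 3 settings.

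Local delivery of NECA was compared with MI alone. These comparisons share mice, the MI group being in both this and the one above, so their values are not independent. For NECA-treated MI against MI, 6 of 8 fold changes were below 0, beside 52.2% of all genes, with a median of -0.27 beside -0.02 for all genes. By edgeR's quasi-likelihood test 0 of 8 passed the threshold, beside 0.0103% of all genes. At an unadjusted p under 0.05 there were also 0, beside 10.9% of all genes, and DESeq2 and limma called 0, beside 0.291% and 0.0% of all genes. No gene's groups were apart, whereas 3.76% of all genes lay wholly higher and 4.78% wholly lower in NECA-treated mice.

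Serping1 had the lowest value, -0.44 ± 0.39 (edgeR adjusted p = 0.713), and C1qa followed with -0.40 ± 0.26 (edgeR adjusted p = 0.578). C1s1 had -0.33 ± 0.50, C1qb -0.32 ± 0.33, C1ra -0.23 ± 0.54 and C1qc -0.18 ± 0.30. C4b and C3 had 0.01 ± 0.65 and 0.07 ± 0.77. These values depended on single mice. The median was -0.55 without MI mouse 2, with libraries summed the lowest of its group for all 9 genes. It was also -0.55 without NECA-treated mouse 2, the highest of its group for 8 of 9. It was -0.14 without NECA-treated mouse 3. MI mouse 3 was the highest of 10 mice for C1qa, C1qb, C1qc, C1ra, C1s1 and Serping1. Without it the median was -0.07, and C1qb, C1qc and C1ra had 0.23, 0.22 and 0.09. With 2nd libraries only all 8 lay below 0 (51.5% of all genes), with a median of -0.26, and with MI mouse 3 also left out C1qa, C1qb and C1qc had 0.20, 0.29 and 0.19. MI mouse 3 had the high macrophage and fibroblast markers given above, and their part in these values was not tested.

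Against sham vehicle, NECA-treated mice had positive fold changes for all 8 genes (48.1% of all genes), with a median of 0.53 beside -0.01. By edgeR's quasi-likelihood test 0 of 8 passed, beside 0.0% of all genes, and 1 of 8, C1qa, had an unadjusted p under 0.05, beside 4.24%. DESeq2 and limma called 0, beside 0.0122% and 0.0%. The values were 0.99 ± 0.56 for C1s1, 0.79 ± 0.70 for C4b, 0.73 ± 0.37 for C1qb, 0.65 ± 0.29 for C1qa, 0.40 ± 0.32 for C1qc, 0.30 ± 0.60 for C1ra, 0.19 ± 0.78 for C3 and 0.14 ± 0.40 for Serping1 (all at an edgeR adjusted p of 0.999). No gene's groups were apart, whereas 5.17% of all genes lay wholly higher and 2.78% wholly lower. Without sham vehicle mouse 3 the median was 1.20. It was 0.32 and 0.28 without sham vehicle mice 1 and 2, and in 1 or both of these settings C1ra, C3 and Serping1 lay below 0, down to -0.04, -0.19 and -0.12. Among the settings run, 2 of the genes passed in 1, that with 2nd libraries only and both sham vehicle mouse 3 and MI mouse 3 left out. There C1qb had 1.08 (edgeR adjusted p = 0.00577) and C1qc 0.87 (edgeR adjusted p = 0.0113), beside 2.53% of all genes called. That setting was chosen after the data were seen and leaves 2 sham vehicle and 2 MI mice.

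**Figure D3:**
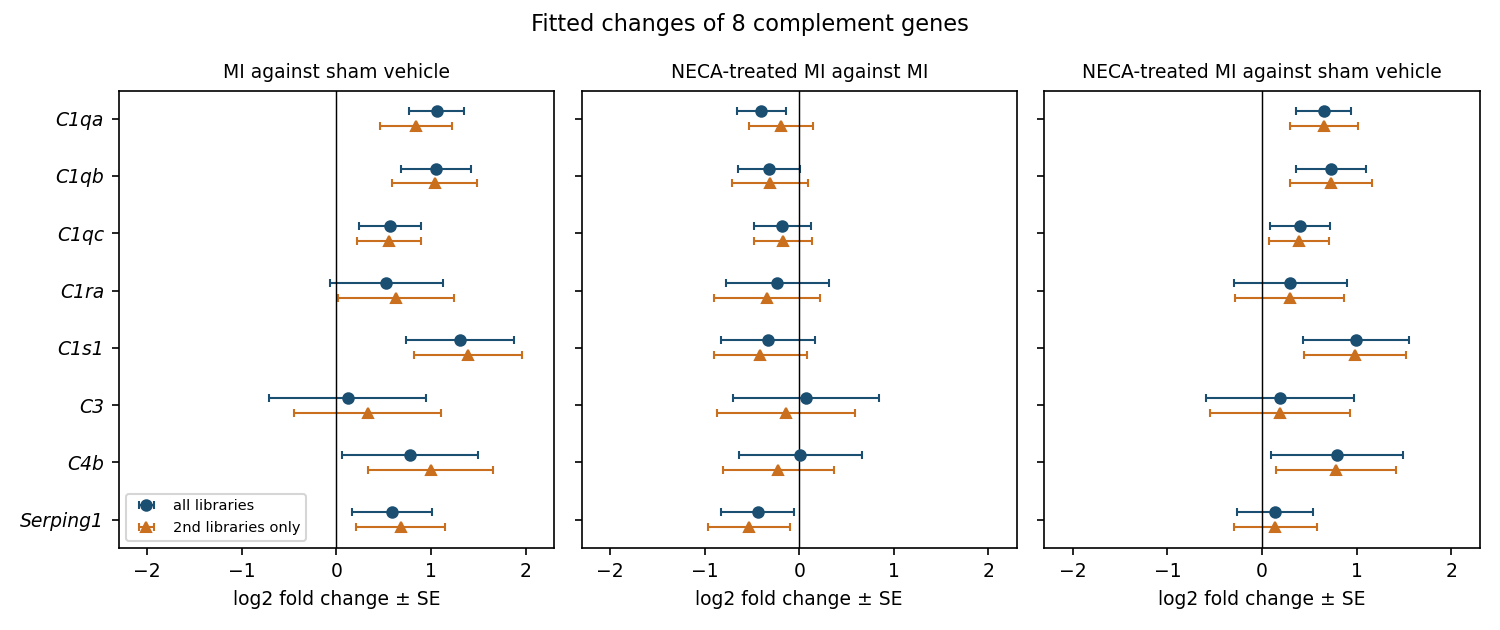
Log2 fold changes (horizontal axes) with standard errors (bars) of the 8 tested complement genes in the 3 comparisons, with all libraries (circles) and with 2nd libraries only (triangles). The C1q genes, C1s1 and C4b lie above 0 by more than their standard error in both comparisons against sham vehicle. In NECA-treated MI against MI the bars cross 0 except for Serping1 and, with all libraries, C1qa.

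Within the mice, the 9 genes did not vary as 1 group. Ratios of counts between genes of the same mouse are used here only to compare mice, since levels of different genes are not set against each other. Over 10 mice the ratio of C1qb to C1qa ranged from 0.793 to 1.35, with an SD of 0.26 on the log2 scale. That of C1qc to C1qb had an SD of 0.21, and that of C1qc to C1qa 0.32. The single genes had SDs of 0.65, 0.73 and 0.62. The 3 chain genes thus kept closer to each other than each kept to its own mean. This was not particular to them. The ratios of C1s1 to C1ra, C4b to C3 and Serping1 to C1ra had SDs of 0.4, 0.44 and 0.36. The single genes of these pairs had SDs of 0.71 to 1.03. C1qb, C1qc and C1qa are also neighbours, in this order, in the RefSeq annotation. C3 to C1qa ranged from 2.65 to 18.7 (SD 0.91), from MI mouse 3 to sham vehicle mouse 3.

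The ratio of the protease genes to each other was lower in sham vehicle than in MI mice. That of C1s1 to C1ra was 1.27, 1.41 and 1.05 in sham vehicle mice, 2.38, 1.85 and 1.76 in MI mice and 2.46, 1.88, 1.86 and 1.31 in NECA-treated mice. All MI mice lay above all sham vehicle mice, and NECA-treated mouse 4 lay among the latter. C1ra and C1s1 lie side by side in the RefSeq annotation, between C1rl and C1rb. The ratio of Serping1, the inhibitor gene, to C1s1 was 3.47, 4.17 and 3.12 in sham vehicle mice, 1.68, 2.20 and 2.20 in MI mice and 2.09, 1.48, 2.36 and 2.05 in NECA-treated mice. All 7 infarcted mice lay below all 3 sham vehicle mice, sham vehicle mouse 3 included. With 2nd libraries only the group means were 3.59 ± 0.533 (SD, n = 3), 2.03 ± 0.425 (n = 3) and 2.0 ± 0.369 (n = 4). These ratios were chosen from 11 with the values known and carry no test. How often ratios of other genes part the groups likewise was not computed.

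**Figure D4:**
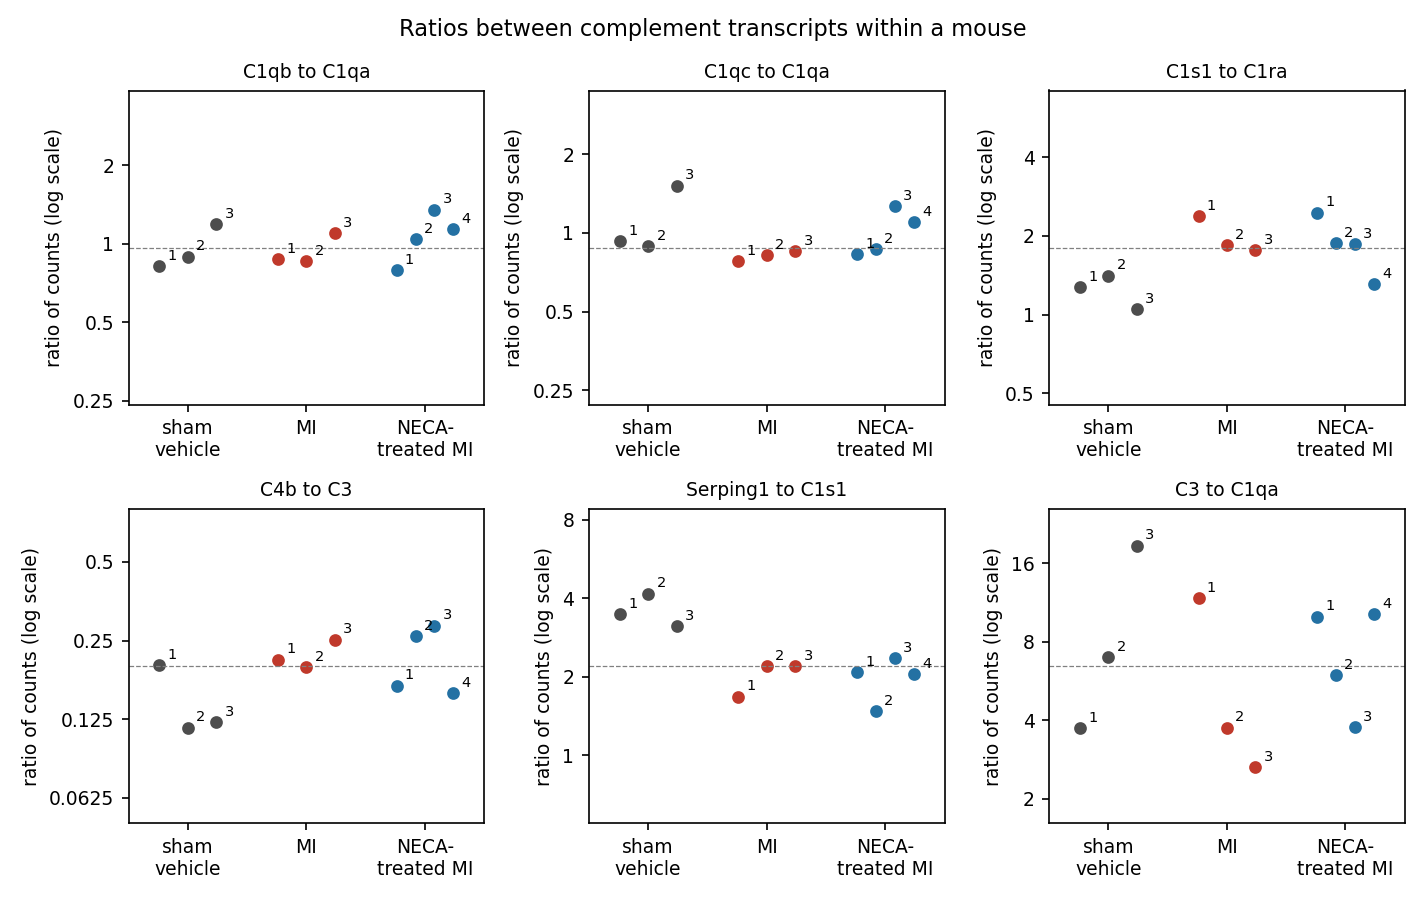
Ratios of counts between complement genes in each of the 10 mice (vertical axes, log scale, each over the same fold range around the dashed median of all mice), by group. C1qb to C1qa stays within 0.793 to 1.35, and C3 to C1qa spans 2.65 to 18.7. Serping1 to C1s1 is lower in all 7 infarcted mice than in the 3 sham vehicle mice, a ratio chosen from 11 with the values known.

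The genes differed in which cell type markers their levels went with over the 10 mice. The mice differ in library depth and in group, and both can enter an r. In all, 36 relations were computed, and none carries a test. A marker score is the mean log2 CPM of a list. C1qb had Pearson's r = 0.96 and Spearman's rho = 1.0 with the score of 8 macrophage markers, 0.93 without the 2 farthest mice and 0.97 with 2nd libraries only. With 8 fibroblast markers C1qb likewise had r = 0.96, and the macrophage and fibroblast scores had r = 0.92 with each other, so their shares cannot be told apart. C1qa and C1qc had r = 0.86 and 0.91 with macrophage markers and 0.89 and 0.93 with fibroblast markers.

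C3 had r = 0.95 and rho = 1.0 with 6 mesothelial markers, 0.96 without the 2 farthest mice and 0.99 with 2nd libraries only. Its r was 0.80 with adipocyte markers, 0.38 with fibroblast markers and 0.45 with macrophage markers. Without the 2 farthest mice of each list, these were 0.62 and -0.07. The mesothelial and adipocyte scores had r = 0.81 with each other. C4b (0.86), Serping1 (0.86), C1ra (0.84) and C1s1 (0.82) also had high r with mesothelial markers, and C1s1 had 0.88 with macrophage markers. Without the 2 farthest mice these were 0.89, 0.68, 0.72, 0.67 and 0.61. With macrophage markers C4b, Serping1 and C1ra had r = 0.75, 0.73 and 0.78. Without the 2 farthest mice, sham vehicle mice 1 and 2, these fell to 0.3, 0.41 and 0.39. With fibroblast markers C4b, Serping1, C1ra and C1s1 had r = 0.63, 0.82, 0.76 and 0.83, and 0.77, 0.76, 0.66 and 0.84 without the 2 farthest mice. C7 had r of 0.22 to 0.57 with the 4 lists, and -0.01 to 0.79 without the 2 farthest mice.

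Summed macrophage markers were 156 to 360 CPM in sham vehicle, 312 to 802 CPM in MI and 368 to 588 CPM in NECA-treated mice, with 7 of 8 markers higher on average in MI than in sham vehicle mice and 3 of 8 higher in NECA-treated than in MI mice. Fibroblast markers were 1185 to 2892, 1728 to 5349 and 1725 to 3112 CPM in these groups, with 8 of 8 higher in MI than in sham vehicle mice and 0 of 8 higher in NECA-treated than in MI mice. Mesothelial markers were 9.43 to 391, 53.6 to 242 and 23.1 to 172 CPM in these groups, with 2 of 6 higher in MI. The defining mesothelial markers Msln and Upk3b were at 3.43 CPM each in sham vehicle mouse 1, and Krt19 and Upk1b were at 0 there. The part of these cell types in the complement values was not tested.

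**Figure D5:**
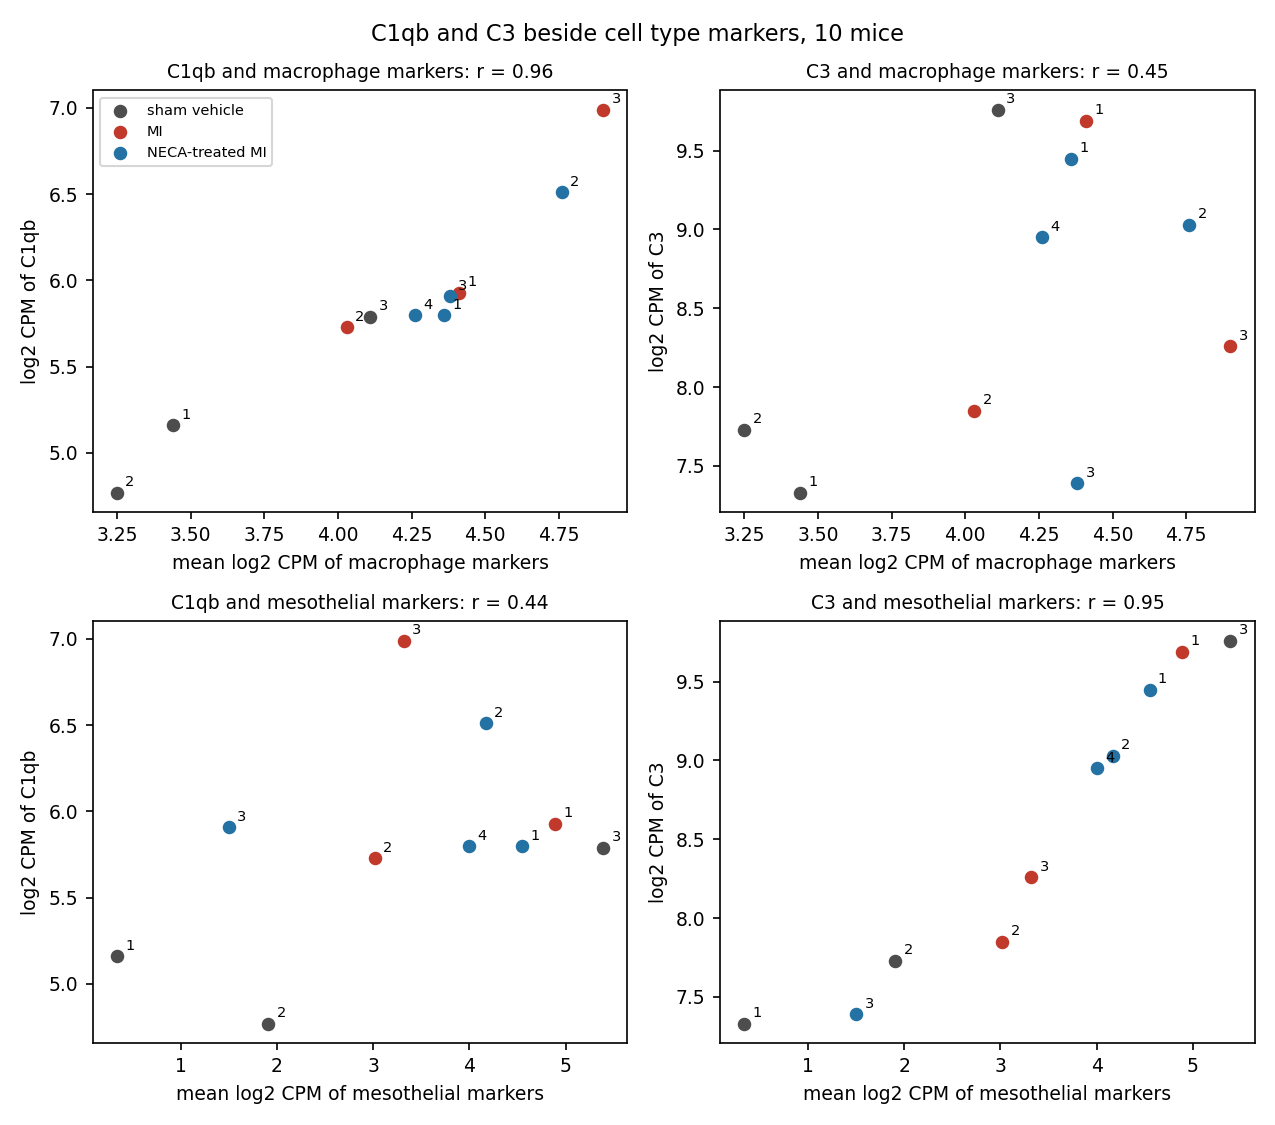
Log2 CPM of C1qb (left) and C3 (right) against the mean log2 CPM of macrophage markers (top) and mesothelial markers (bottom) in 10 mice, coloured by group and numbered as in the labels. For C1qb r is 0.96 with the macrophage and 0.44 with the mesothelial markers, and for C3 it is 0.45 and 0.95.

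Between the genes themselves, r over the 10 mice was highest for C1qb with C1qc (0.95), and was 0.91 for C1qa with C1qb, for C1s1 with C4b, for C1s1 with Serping1 and for C1ra with Serping1. C3 had 0.89 with C4b and 0.32 with C1qb. C7 had 0.12 to 0.58 with the others.

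Among 8281 genes with a symbol and a mean of at least 10 CPM, those whose log2 CPM was most like each complement gene over the 10 mice were found by Pearson's r. For C3 they were Muc16 (0.98), a membrane mucin of mesothelium, Pkhd1l1 (0.96) and the uroplakin gene Upk3b (0.96). For C1qb they were the matrix metalloproteinase gene Mmp14 (0.99), Gpr153 (0.97) and the lysozyme gene Lyz2 (0.96), and for C1qa Mmp2 (0.95), Pld4 (0.95) and the progranulin gene Grn (0.94). For C1qc they were Antxr1, the matrix protein gene Tgfbi and the collagen gene Col14a1 (0.98 each). C1s1 was most like the interferon-induced transcription factor gene Irf1 (0.99), the class I gene H2-T23 (0.97) and Cdc42se1 (0.96), and Irf1 also led for C4b (0.93), before Fndc1 and Rcbtb1 (0.92 each). The r of Irf1 with 2nd libraries only was 0.82 with C1s1 and 0.83 with C4b. C1ra was most like Frmd4b, Tdg and the cathepsin gene Ctsc (0.94 each), and Serping1 like Aldh16a1 (0.95), the adhesion molecule gene Icam1 (0.95) and Cdc42se1 (0.94). For C7 they were Grk5 (0.94), Pskh1 (0.91) and Sipa1 (0.88), from few counts of C7. With 2nd libraries only, r fell to 0.61 for Pskh1 with C7, 0.66 for Aldh16a1 with Serping1 and 0.78 for Tdg with C1ra. The genes named for C3 and C1qb kept an r of at least 0.96 there. These genes were picked as the highest of 8281, so their r is a description of these mice.

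The rest of the complement system was read from a list of 49 further genes, of which 20 could be tested. By edgeR's quasi-likelihood test 0 of 20 passed in each of the 3 comparisons, and 3, 1 and 4 had an unadjusted p under 0.05 in MI against sham vehicle, NECA-treated MI against MI and NECA-treated MI against sham vehicle, beside 14.9%, 10.9% and 4.24% of all genes. The median log2 fold changes were 0.25, -0.13 and 0.06. None of the terminal pathway genes Hc, C6, C8a, C8b, C8g and C9 was high enough to test. The liver-made lectin genes Mbl1 and Mbl2, Fcnb, C8a, C8b, C9, C4bp and Cd55b had 0 counts in every library.

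Of the recognition genes, Colec11, a collectin gene, had 13.7, 6.77 and 3.14 CPM in sham vehicle mice and 15.9, 23.6, 19.7 and 21.7 CPM in NECA-treated mice, and its MI mean was 23.4 ± 6.85 CPM (SD, n = 3). Both infarcted groups lay above the sham vehicle mice, as 8.34% of all tested genes did for MI and 5.17% for NECA-treated MI. Sham vehicle mouse 3 was the lowest of all, unlike for the members. The log2 fold change of Colec11 for MI against sham vehicle was 1.48 ± 0.37 (edgeR adjusted p = 0.102). It passed without the low-count filter, at 1.52 (edgeR adjusted p = 0.00144), beside 1.4% of all genes. It also passed without MI mouse 1, at 1.54 (edgeR adjusted p = 0.0488), where 310 of 10047 genes passed. Colec12, a scavenger receptor gene, had 0.26 ± 0.48 (edgeR adjusted p = 0.855).

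Of the alternative pathway, Cfd, the fat cell gene of factor D, had 0, 1.50 and 478 CPM in sham vehicle mice, the last being mouse 3. The log2 fold change of MI against sham vehicle was -1.02 ± 2.21 (edgeR adjusted p = 0.877) and turned to 6.35 without that mouse. Cfp, the properdin gene, had 0.24 ± 0.42 (edgeR adjusted p = 0.841). Among regulators, Clu, the clusterin gene, had 0.49 ± 0.42 (edgeR adjusted p = 0.621). Cd59a, whose product blocks the membrane attack complex on cells and which has the paralog Cd59b, had -0.05 ± 0.22 (edgeR adjusted p = 0.945) and 0.02 with no scaling. It had -0.39 ± 0.18 with 2nd libraries only (edgeR adjusted p = 0.384), where the MI mice, at 58.0 ± 5.94 CPM (SD, n = 3), lay wholly below the sham vehicle mice, at 71.9 ± 1.58 CPM (n = 3), a separation shown by 5.75% of all genes. Among receptors and binding proteins, Calr and Lrp1, which bind C1q at the cell surface, had 0.20 ± 0.20 and 0.17 ± 0.49 (edgeR adjusted p = 0.679 and 0.91). Itgam, a chain of the receptor for a C3 fragment, was singled out after its values were seen. It had 1.72, 1.50 and 4.72 CPM in sham vehicle mice and 17.5, 30.1, 33.4 and 11.3 CPM in NECA-treated mice, with log2 fold changes against sham vehicle of 2.72 ± 0.89 for MI and 3.07 ± 0.89 for NECA-treated MI (edgeR adjusted p = 0.223 and 0.999). Both passed without the low-count filter, where 346 and 27 of 24735 genes passed. That for MI also passed without MI mouse 2, whose 1st library held 4.72 CPM, as did 67 of 10073 genes. MI mice 1 and 3 had 17.8 CPM and, in the 1st library, 36.2 CPM.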

How the data were processed

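Total RNA of 12 libraries from 10 mice was made into cDNA by a modified CEL-Seq2 protocol, which reads the 3′ end of transcripts, per the labels' protocols. Expected counts per gene from RSEM, after alignment with STAR on build GRCm39, were deposited by the authors as whole numbers, with FastQC 0.11.9 among the tools of the submitters' processing notes. A second table deposited by the authors holds log2(TPM + 1). The sources used here do not name the annotation release or say whether molecular identifiers or strand were used. RSEM shares reads between genes with close copies, whose values are uncertain. Of 57054 rows, 306 had values only in the 1st libraries and 101 lacked them only there, and the other 56647 were used. Symbols came from GENCODE M21 by Ensembl identifier (52029 rows). No column was left unassigned.

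The mouse was the replicate. The labels do not say how far the mice of a group were handled apart, so p-values measure the spread between these samples. Counts of the 1st and 2nd libraries of a mouse were summed. Genes passing filterByExpr were scaled by TMM and tested two-sided with edgeR 4.0.16 in R 4.3.3 (robust quasi-likelihood, 1 fit over 10 mice, adjusted p under 0.05). DESeq2 1.42.0, limma 3.58.1 on log2(TPM + 1) of genes with a mean of at least 1, other scalings, no filter, single libraries, a replicate block, leaving out each mouse, and 2nd libraries only without sham vehicle mouse 3 or without MI mouse 3 were alternatives. Leaving out both these mice, with all or with 2nd libraries only, was added after the data were seen. At 10 CPM the ordinary libraries held about 10 counts, so counting error is large there. Named are all 9 genes, any gene of the wider complement list past the threshold, the 2 most abundant tested genes of each role, and the 3 genes most like each complement gene. Marker scores used a prior count of 2. A gene of the wider list is not reported here. The fit was tested on simulated counts. The members and lists were chosen with earlier results of these data known.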

Additional observations from a re-analysis of the deposited data

Results flagged for a closer look

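Among the NECA-treated MI mice, C1qb was high in 1 mouse. Mouse 2 had 94.3 CPM and the other 3 mice 52.7 to 59.0 CPM, so the gap above the others took 0.848 of the group's range, beyond Dixon's 95% critical value of 0.829 for 4 samples. Such gaps were looked for in the groups of 4 mice for 17 genes, and chance marks about 1 in 20 groups. The same mouse was the highest of its group for 8 of the 9 complement genes, all but C3, and for the summed macrophage (588 CPM) and fibroblast markers (3112 CPM).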

How the results depend on the processing

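Each comparison was rerun with other scalings (RLE, upper-quartile, none), no filter on low counts, DESeq2, limma, 1st or 2nd libraries only, the compared groups alone, a replicate block and each mouse left out. In 4 combined settings sham vehicle mouse 3 and MI mouse 3 were left out, 1 at a time with 2nd libraries only, or both with all or with 2nd libraries only, the last 2 being chosen after the data were seen. Of the fold changes of the 8 tested complement genes, 185 of 191 kept their direction and side of the threshold for MI against sham vehicle, 3 turned direction and 3 newly passed. For NECA-treated MI against MI 157 of 192 held and 35 turned. Of those for NECA-treated MI against sham vehicle 183 of 192 held, 7 turned and 2 newly passed. The causes were not tested. Precision is limited by depth, since 10 CPM was about 10 counts in the ordinary libraries, and by 3 to 4 mice a group.

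Complement genes called for MI against sham vehicle numbered 0 with all mice, 2 with no low-count filter (C1qa, adjusted p = 0.000666, and C1qb, adjusted p = 0.000741), 1 with DESeq2 (C1qa) and 0 to 0 with each mouse left out. For NECA-treated MI against sham vehicle they numbered 2 with 2nd libraries only and both sham vehicle mouse 3 and MI mouse 3 left out, and otherwise 0. Over all genes, edgeR called 15 for MI against sham vehicle, and 0 to 346 in the alternatives, DESeq2 and limma included. From the wider complement list, MI against sham vehicle gave 3 calls with no filter (Itgb2, Itgam, Colec11), 1 with 2nd libraries only and both mice left out (Colec12), and 0 to 1 with each mouse left out (Colec11 without MI mouse 1, Itgam without MI mouse 2). NECA-treated MI against sham vehicle gave 1 (Itgam) with no filter, with only the compared groups, and with 2nd libraries only and MI mouse 3 left out. It gave 2 (Itgb2, Itgam) with 2nd libraries only and both mice left out.

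Log2 fold changes that turned direction for MI against sham vehicle are given as ranges over each mouse left out. They were -0.63 to 1.26 for C3, -1.97 to 6.35 for Cfd, -0.08 to 1.25 for Cfp, -0.37 to 0.65 for Lrp1, -0.07 to 1.40 for Colec12, -0.25 to 0.77 for Clu and -0.38 to 0.15 for Cd59a. Cfd also had 1.26 with limma, 6.30 with 2nd libraries only and sham vehicle mouse 3 left out, 6.96 with both mice left out and 6.90 with 2nd libraries only and both left out. With 2nd libraries only and MI mouse 3 left out, Cfp had -0.24, Lrp1 -0.03 and Clu -0.40. Clu had -0.02 with both mice left out and -0.17 with 2nd libraries only and both left out. Cd59a had 0.02 with no scaling and 0.06 with both mice left out.

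For NECA-treated MI against MI the ranges over each mouse left out were -0.59 to 0.23 for C1qb, -0.39 to 0.22 for C1qc, -0.56 to 0.09 for C1ra, -0.26 to 0.82 for C3 and -0.34 to 0.63 for C4b. With 2nd libraries only and MI mouse 3 left out, C1qa had 0.20, C1qb 0.29, C1qc 0.19, C3 -0.41 and C4b -0.38. With both mice left out, C1qb had 0.23, C1qc 0.23, C1ra 0.10, C3 -0.14 and C4b -0.07. With 2nd libraries only and both left out, C1qa had 0.20, C1qb 0.29, C1qc 0.19, C3 -0.41 and C4b -0.39. With 2nd libraries only, with or without sham vehicle mouse 3, C3 had -0.14 and C4b -0.22. Limma gave C3 -0.09 and C4b -0.58. C4b had -0.01 with upper-quartile scaling, -0.04 with no scaling and with DESeq2, and -0.02 with no filter. For NECA-treated MI against sham vehicle the ranges over each mouse left out were -0.04 to 1.36 for C1ra, -0.19 to 1.33 for C3 and -0.12 to 0.77 for Serping1.

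With a replicate block, 0 complement genes passed in each comparison, and 6, 0 and 1 of all genes did against 15, 1 and 0 without it. Deviations of same-numbered mice from their group means had r of -0.25 to 0.20 over 9 pairs, and 1 of 9 mice went best with its own number, so the pairing is only one of number.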
